A study of Mus musculus with 6 samples.

Results

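Hox genes and the noncoding RNAs of their clusters were followed in mouse chemically induced cardiovascular progenitor cells (ciCPCs), as 47 of the 53801 genes in the count files. Members were taken by symbol: 39 coding genes named Hoxa, Hoxb, Hoxc or Hoxd with a number, and 8 noncoding RNAs, which were Hotair, Hottip, Hotairm1, Evx1os and the genes named Hox with the ending os. The cells had been derived from mouse fibroblasts by chemical reprogramming and were sampled as 3 libraries at passage 20 and 3 at passage 3. All 6 libraries came from wild-type cells whose strain background mixed C57BL/6 with 129J/SvE, with colonies picked during reprogramming and then expanded. The medium of both passages contained BMP4, Activin A, CHIR99021 (a glycogen synthase kinase inhibitor that activates Wnt signalling) and SU5402 (an FGF receptor inhibitor). The labels name no line number, clone or number of colonies, do not tie the passages to shared or separate colonies, and do not say that replicates were separate cultures. The p-values therefore measure the spread between these libraries, which may be technical, and passage cannot be told apart from culture or library batch.

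Hox proteins are homeodomain transcription factors that tell cells where they lie along the body axis and the limb. Mammals carry them in clusters named a to d, and genes in the same place of different clusters are paralogs with the same number. Low numbers lie at the 3′ end of a cluster and are used early and far forward in the embryo, and high numbers at the 5′ end are used late, in the tail, the hindgut, the genitals and the outer limb. Clusters are held silent by Polycomb proteins and opened by Trithorax proteins, and fibroblasts are known to keep the Hox pattern of the body site they came from. In the heart field, anterior Hox genes are known from progenitors of the outflow tract.

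Libraries held 11387738 to 13285419 counts in genes at passage 20 and 13995799 to 17721788 at passage 3. Levels are CPM, counts scaled to a common library size with TMM factors, given as mean ± SD with n = 3 per passage, and levels set between genes are also divided by the exon length in kilobases (RPKM). Across all genes tested, 74.3% passed the quasi-likelihood test of edgeR at a Benjamini-Hochberg adjusted p under 0.05, 37.0% higher and 37.3% lower at passage 20, so passing alone sets few genes apart. With library sizes only, 23.3% were higher and 54.6% lower, and the median over all genes shifted to a log2 fold change of -0.34 from -0.01, so small changes depend on the scaling. Passage 20 replicate 3 stood apart from its group: the chi-square statistic per gene against replicates 1 and 2 was 10.6 and 8.72, against 2.04 between those libraries and 1.75 to 2.63 between those at passage 3. Of the markers used to check the label, all 11 genes of cardiovascular progenitors were tested, of which 6 were higher and 5 lower, with a summed level of 857.2 to 966.0 CPM at passage 20 and 963.0 to 991.3 CPM at passage 3. The direction of that sum rests on Pdgfra, at 134.1 CPM at passage 20 and 328.1 CPM at passage 3. Without it the sum was 723.9 to 831.0 CPM at passage 20 and 643.1 to 659.2 CPM at passage 3. These are bulk samples, so fewer cells with a transcript and less of it per cell cannot be told apart.

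Hox transcripts were far less abundant at passage 20 than at passage 3. Coding Hox genes summed to 52.6, 52.8 and 67.8 CPM in passage 20 libraries, against 371.9, 384.9 and 367.3 CPM in passage 3 libraries. The groups did not come near each other, and within passage 20 the sum was highest in replicate 3. Per exon length, the sum was 21.6 ± 3.21 RPKM at passage 20 and 150.7 ± 4.09 RPKM at passage 3, 6.98-fold lower.

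The loss was uneven along the clusters. Genes of paralogs 9 to 13 summed to 8.99 ± 1.57 RPKM at passage 20 and 127.6 ± 3.23 RPKM at passage 3, 14.2-fold lower. Those of paralogs 4 to 8 summed to 9.48 ± 0.668 RPKM at passage 20 and 18.2 ± 1.17 RPKM at passage 3, 1.92-fold lower, and those of paralogs 1 to 3 to 3.12 ± 1.08 RPKM and 4.91 ± 0.333 RPKM, 1.57-fold lower. The 3 ranges did not overlap between passages in any case. Posterior genes thus made up 41.5 ± 1.03% of the summed coding Hox RPKM at passage 20 and 84.7 ± 0.175% at passage 3. Hoxb4 alone gave 5.58 RPKM of the paralog 4 to 8 sum at passage 20 and 7.32 RPKM at passage 3. By gene, the median log2 fold change of tested members was -3.85 for paralogs 9 to 13, -1.47 for 4 to 8 and -1.43 for 1 to 3. Single paralog numbers departed from that order, with medians of -3.01 for paralog 5 and -1.32 for paralog 9.

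**Figure D1:**
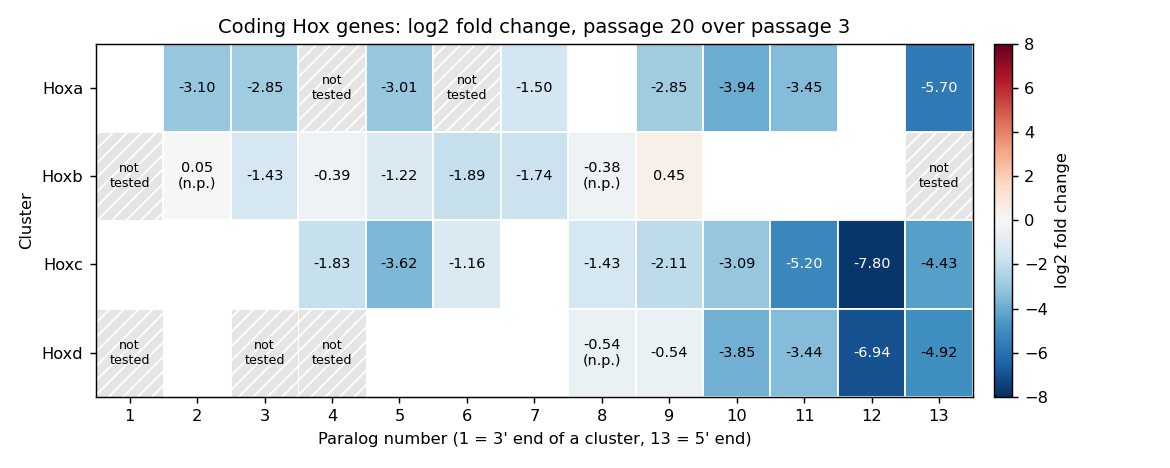
Fitted log2 fold change (passage 20 over passage 3) of coding Hox genes, with clusters in rows and paralog numbers in columns; n.p. marks genes that did not pass the test, hatching marks genes with too few counts to be tested, and white marks places with no gene or no value shown. Values fall to -5.70 at Hoxa13, -6.94 at Hoxd12 and -7.80 at Hoxc12 on the right, while row Hoxb stays between -1.89 and 0.45; the values of Hoxc12 and Hoxc5 rest on 2 and 3 counts at passage 20.

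Of the 47 members, 37 had enough counts to be tested, and 31 of them were lower, 2 were higher and 4 did not pass. The share of all genes called lower was 37.3%, and the median log2 fold change was -2.85 over the 37 members and -0.01 over all genes. This count needs care, because 23 of the 37 members reached the count minimum at passage 3 alone, and all 23 were lower. That route favours lower calls, since it takes in genes through the passage where they are high. The other 14 members reached it at both passages, and 8 of them were lower (57.1%), 2 higher and 4 not passed, against 35.6% lower among the 13143 genes that reached it at both. The median log2 fold change of these 14 members was -0.54, against 0.02 over those genes. It was -3.45 over the 23 members carried by passage 3, against -1.61 over all 1246 genes that reached the minimum at passage 3 alone. Of all members tested, 21 were called and at least 4-fold lower and 18 at least 8-fold lower (4.48% and 1.66% of all genes tested). Of these, 17 of the 21 and 15 of the 18 were carried by passage 3, which is 73.9% and 65.2% of the 23 members. Among all 1246 genes of that route, 37.2% and 16.4% fell that far. Among the 14 that reached the minimum at both passages, Hoxa9, Hoxa10, Hoxd11 and Hoxd13 were at least 4-fold lower and the last 3 at least 8-fold, against 1.63% and 0.358% of genes of that kind. The passages did not overlap in 35 of the 37 members, against 77.5% of all genes. With no count minimum, 32 members were lower and 3 higher, against 22.2% and 21.4% of genes. Passage 20 replicate 3 was the highest of its group in 23 of the 37 members (62.2%), against 39.5% of all genes, and without it 32 members were lower and 1 higher, against 39.9% and 38.9% of genes.

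Clusters a, c and d lost most of their transcripts and cluster b kept most. Cluster a summed to 3.59 ± 0.794 RPKM at passage 20 and 40.6 ± 2.85 RPKM at passage 3 (11.3-fold lower), cluster c to 1.64 ± 0.642 and 28.1 ± 2.61 RPKM (17.1-fold lower), and cluster d to 4.28 ± 1.10 and 64.6 ± 1.26 RPKM (15.1-fold lower). The order of clusters c and d depends on the unit, since in CPM they were 11.6-fold and 15.5-fold lower. Hoxc12 alone gave 15.3 RPKM of the cluster c sum at passage 3. Cluster b summed to 11.5, 11.6 and 13.2 RPKM in passage 20 libraries, against 17.1, 17.8 and 17.4 RPKM in passage 3 libraries, 1.44-fold lower. Cluster b therefore held 57.9%, 58.9% and 52.2% of the summed coding Hox RPKM at passage 20, against 11.6%, 11.4% and 11.7% at passage 3. The order changed with it: cluster d had been first at passage 3 with 42.9 ± 1.85% and held 19.7 ± 2.87% at passage 20.

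**Figure D2:**
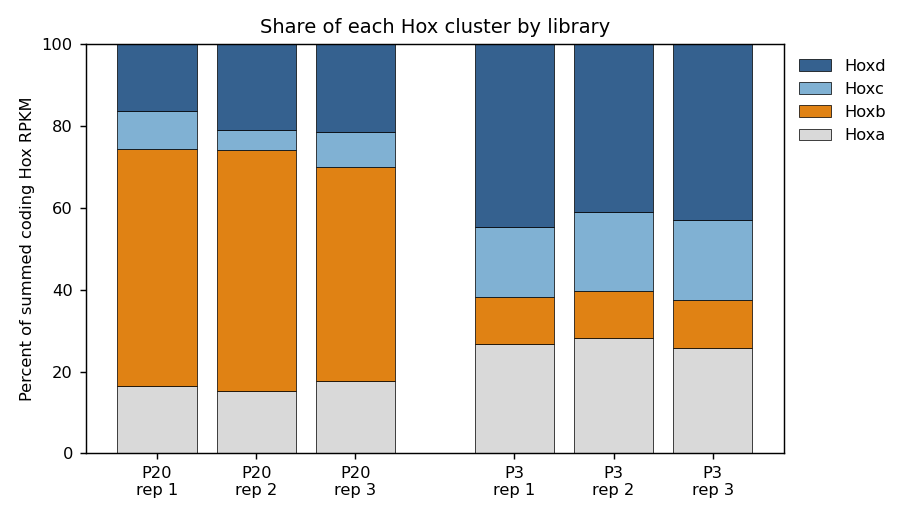
Share of each cluster in the summed coding Hox RPKM (percent, stacked to 100) in the 3 libraries of passage 20 on the left and the 3 of passage 3 on the right. Hoxb takes 52.2% to 58.9% of each passage 20 bar and 11.4% to 11.7% of each passage 3 bar.

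Clusters hold different paralogs, so they were also set side by side within a paralog range. Within paralogs 9 to 13, the summed level was 18.4-fold lower in cluster a, 33.9-fold lower in cluster c and 17.6-fold lower in cluster d, while in cluster b, which has only Hoxb9 and Hoxb13 there, it was 2.63 ± 0.325 RPKM at passage 20 and 1.98 ± 0.272 RPKM at passage 3. Within paralogs 1 to 8, the sum was 2.73-fold lower in cluster a, 2.99-fold lower in cluster c and 1.63-fold lower in cluster b. The median tested gene of cluster a fell further than its sum, 7.22-fold in paralogs 1 to 3 and 4.78-fold in paralogs 4 to 8. That median was 3.10-fold in paralogs 4 to 8 of cluster c, and 1.62-fold and 2.33-fold in the 2 ranges of cluster b. These medians rest on only 2 to 5 tested genes each. In cluster a, Hoxa2, Hoxa3, Hoxa5 and Hoxa7 reached the count minimum at passage 3 alone, a route that favours lower calls. The same held for Hoxc4, Hoxc5, Hoxc8 and Hoxb5 to Hoxb7, so the medians may overstate the fall. In cluster d the sum of paralogs 1 to 8 was 0.634 ± 0.329 RPKM at passage 20 and 0.597 ± 0.113 RPKM at passage 3, with overlapping libraries. The overlap came from passage 20 replicate 3 alone, at 1.01 RPKM. Replicates 1 and 2, at 0.431 and 0.457 RPKM, lay below the 0.509 to 0.724 RPKM of passage 3.

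The posterior genes that led the Hox transcripts at passage 3 lay at the 5′ ends of clusters d, a and c. The promoter windows of Hoxd13, Hoxd12 and Hoxa13, which fell furthest among coding members with more than 3 counts at passage 20 and a RefSeq window, are shown beside that of Hoxb4, the most abundant Hox gene at passage 20. Each runs 5′ to 3′ along the gene from 250 bases before to 50 bases after the RefSeq start (GRCm38.p6), with CpG dinucleotides in capitals.
Hoxd13, chr2:74667975-74668274 plus strand: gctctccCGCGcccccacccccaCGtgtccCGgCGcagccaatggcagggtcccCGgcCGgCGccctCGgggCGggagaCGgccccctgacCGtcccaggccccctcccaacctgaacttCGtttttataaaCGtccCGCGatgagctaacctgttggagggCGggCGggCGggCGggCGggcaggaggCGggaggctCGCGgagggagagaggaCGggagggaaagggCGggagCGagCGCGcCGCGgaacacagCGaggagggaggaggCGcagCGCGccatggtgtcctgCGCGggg
Hoxd12, chr2:74674763-74675062 plus strand: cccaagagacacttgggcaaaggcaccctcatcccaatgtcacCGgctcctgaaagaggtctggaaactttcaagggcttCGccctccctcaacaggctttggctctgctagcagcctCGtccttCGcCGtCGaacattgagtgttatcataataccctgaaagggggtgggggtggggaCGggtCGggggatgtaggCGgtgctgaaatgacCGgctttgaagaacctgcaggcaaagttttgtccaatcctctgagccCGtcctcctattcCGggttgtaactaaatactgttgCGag
Hoxa13, chr6:52260831-52261130 minus strand: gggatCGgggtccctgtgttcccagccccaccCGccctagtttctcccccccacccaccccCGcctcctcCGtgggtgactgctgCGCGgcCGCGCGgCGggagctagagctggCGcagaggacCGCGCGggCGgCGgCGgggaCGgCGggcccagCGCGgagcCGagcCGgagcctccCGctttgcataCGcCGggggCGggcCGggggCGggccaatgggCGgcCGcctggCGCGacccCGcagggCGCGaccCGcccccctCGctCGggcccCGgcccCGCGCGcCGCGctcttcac
Hoxb4, chr11:96318017-96318316 plus strand: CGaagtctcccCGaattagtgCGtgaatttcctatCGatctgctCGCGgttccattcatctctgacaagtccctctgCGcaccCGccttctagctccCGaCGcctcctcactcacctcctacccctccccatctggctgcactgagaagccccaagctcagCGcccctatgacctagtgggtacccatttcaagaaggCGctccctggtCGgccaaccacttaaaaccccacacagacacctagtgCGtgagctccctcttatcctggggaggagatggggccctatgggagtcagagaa
The windows hold 37 CpG in Hoxd13, 13 in Hoxd12, 45 in Hoxa13 and 14 in Hoxb4, so CpG number does not order these genes as their fold changes do. RefSeq windows were matched for 27 members, with 29 windows in all, whose median was 14 CpG, against 7 over all 32851 windows of mouse genes.

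Hoxd13 (ENSMUSG00000001819, GRCm38 chromosome 2, 74668310 to 74671599, plus strand) is needed to form digits and genitalia, and it was the most abundant Hox gene at passage 3 per exon length, at 39.1 ± 1.54 RPKM. It had 1.78, 3.18 and 4.44 CPM in passage 20 libraries, against 101.3, 93.7 and 96.5 CPM in passage 3 libraries. The groups lay far apart, and replicate 3 was the highest of passage 20. The log2 fold change was -4.92 ± 0.17 (SE), 30.2-fold lower (adjusted p = 6.87e-09, edgeR quasi-likelihood with Benjamini-Hochberg). Its neighbour Hoxd12 (ENSMUSG00000001823, 74675013 to 74677705) had 0.198, 0.199 and 0.247 CPM at passage 20, against 28.4, 27.8 and 27.0 CPM at passage 3. Transcripts of this gene, another regulator of the outer limb, were near the limit of counting in all passage 20 libraries, at 7 counts in all, and 123-fold lower (adjusted p = 2.65e-10, same test).

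The remaining posterior genes of cluster d fell less, and Hoxd9 least. Hoxd11, which patterns the forearm with Hoxa11, had 1.78, 1.49 and 2.47 CPM at passage 20, against 20.1, 21.1 and 22.1 CPM at passage 3, 10.8-fold lower. Hoxd10 had 0.297, 1.39 and 0.904 CPM at passage 20, against 12.0, 13.2 and 12.6 CPM at passage 3, 14.4-fold lower (adjusted p = 1.49e-07, edgeR quasi-likelihood with Benjamini-Hochberg). Hoxd9 had 3.07, 2.59 and 3.12 CPM at passage 20, against 4.56, 4.19 and 4.09 CPM at passage 3. Those groups were separate but close, with a log2 fold change of -0.54 ± 0.17, and the call was lost with DESeq2 (adjusted p = 0.0121 by edgeR quasi-likelihood and 0.0665 by DESeq2, both Benjamini-Hochberg). Hoxd9 was thereby the most abundant gene of cluster d at passage 20, at 1.37 ± 0.139 RPKM, just above Hoxd13 at 1.26 ± 0.535 RPKM, and these levels overlapped.

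In cluster a, the same end of the cluster carried the level at passage 3. Hoxa13 (ENSMUSG00000038203, chromosome 6, 52257694 to 52260880, minus strand), which acts with Hoxd13 in digits, had 0.792, 0.796 and 0.658 CPM at passage 20, against 37.8, 42.9 and 37.0 CPM at passage 3. It was about equally low in every passage 20 library, including replicate 3, and 52.1-fold lower (log2 -5.70 ± 0.15, adjusted p = 3.31e-10, edgeR quasi-likelihood with Benjamini-Hochberg). Hoxa10 (ENSMUSG00000000938, 52231197 to 52240854), known for patterning the thigh and the uterus, had 2.47, 2.29 and 3.04 CPM at passage 20, against 39.7, 43.9 and 37.7 CPM at passage 3, 15.3-fold lower (adjusted p = 9.01e-10, same test). Hoxa11 and Hoxa9 followed at 10.9-fold and 7.20-fold lower. Hoxa9, a gene known from blood progenitors, stayed countable at 1.98, 2.19 and 3.62 CPM at passage 20, against 20.0, 20.3 and 17.2 CPM at passage 3.

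**Figure D3:**
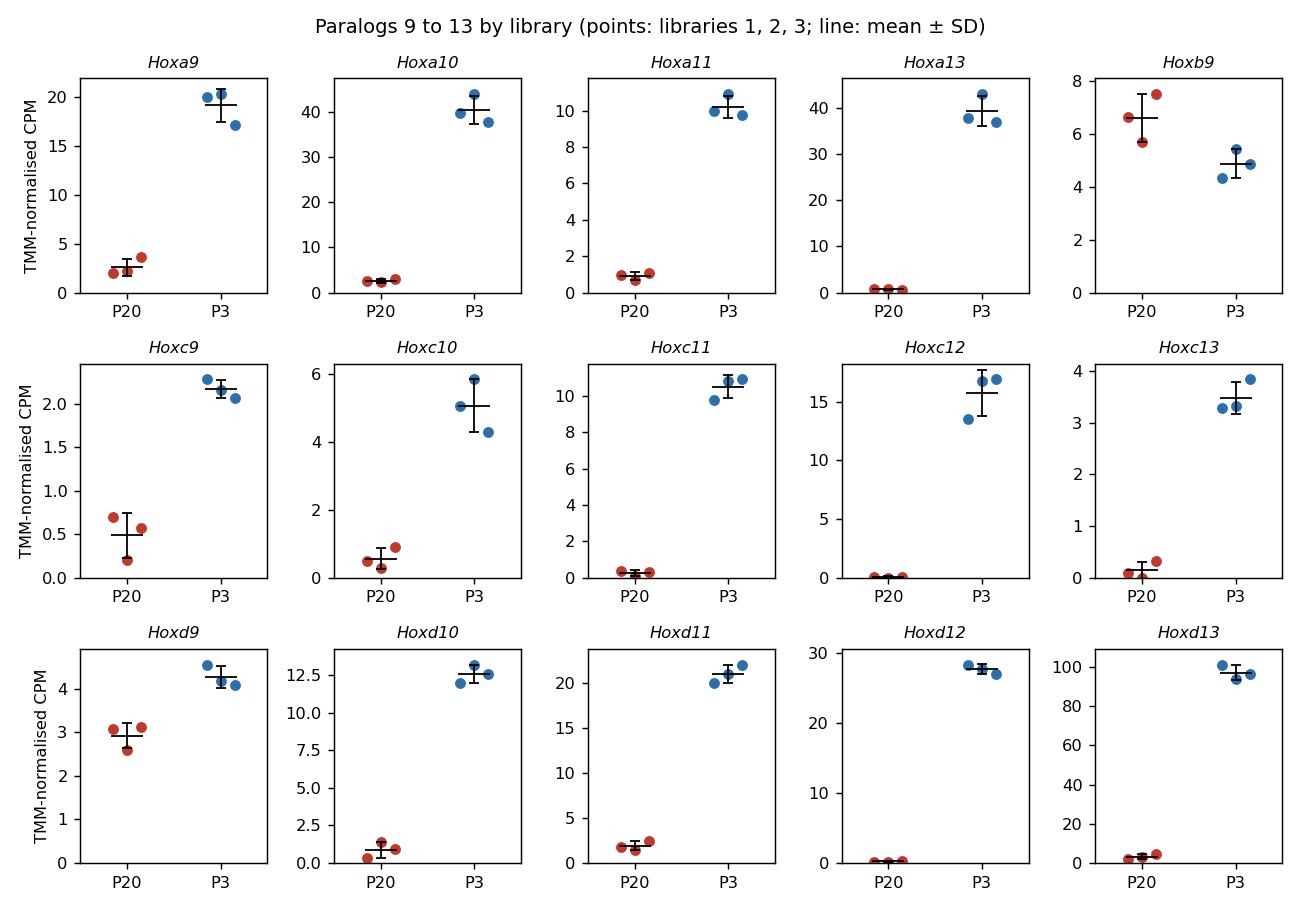
TMM-normalised CPM of the 15 tested genes of paralogs 9 to 13, with passage 20 (P20) left of passage 3 (P3); points are the 3 libraries of each passage and bars show mean ± SD, on an axis from 0 for each gene. In 14 panels the P20 points lie below all P3 points, and in the Hoxb9 panel they lie at 5.67 to 7.48 CPM, above the 4.31 to 5.42 CPM of P3.

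Of the coding genes, Hoxc12 in cluster c had the largest fitted fall, though with so few counts at passage 20 that its rank above Hoxd12 is not resolved. Hoxc12 (ENSMUSG00000050328, chromosome 15, 102936757 to 102938609, plus strand) had 1, 0 and 1 counts in passage 20 libraries, against 213, 272 and 335 counts in passage 3 libraries. From the pooled counts it was 256-fold lower, with a 95% counting interval of 70.6 to 2116 that holds the fitted 123-fold of Hoxd12, and the adjusted p was 5.02e-09 (edgeR quasi-likelihood with Benjamini-Hochberg). At passage 3 it had been the third most abundant Hox gene per exon length, at 15.3 ± 1.88 RPKM, next to Hoxa13 at 15.9 ± 1.29 RPKM and within the spread of it. Hoxc11 (ENSMUSG00000001656, 102954427 to 102957708) had 0.396, 0.0994 and 0.329 CPM at passage 20, against 9.76, 10.8 and 10.9 CPM at passage 3, 36.6-fold lower (adjusted p = 1.69e-08, same test). Hoxc10, a gene of the lumbar cord and hindlimb, had 0.495, 0.298 and 0.904 CPM at passage 20, against 5.07, 5.85 and 4.30 CPM at passage 3, 8.50-fold lower. Hoxc13, known for its part in hair and nails, had 0.0990, 0 and 0.329 CPM at passage 20, against 3.29, 3.33 and 3.84 CPM at passage 3. Of its 5 counts at passage 20, 4 were in replicate 3, and its log2 fold change of -4.43 ± 0.43 became -5.93 without that library. Hoxc9 was 4.32-fold lower.

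Hoxb9 alone among the tested posterior genes was higher. Hoxb9 (ENSMUSG00000020875, chromosome 11, 96271457 to 96276595, plus strand), which shares rib and spinal cord patterning with the other Hox9 genes, had 6.63, 5.67 and 7.48 CPM at passage 20, against 4.31, 5.42 and 4.85 CPM at passage 3. The lowest passage 20 library lay just above the highest passage 3 library, and the rise was 1.36-fold (log2 0.45 ± 0.16, adjusted p = 0.0232, edgeR quasi-likelihood with Benjamini-Hochberg). The call did not hold without passage 20 replicate 3 (log2 0.32, adjusted p = 0.0796), passage 3 replicate 1 (0.36, adjusted p = 0.0969) or passage 3 replicate 3 (0.43, adjusted p = 0.0712), nor with DESeq2 (adjusted p = 0.0691), upper-quartile factors (0.37, adjusted p = 0.0522) or library sizes only (0.12, adjusted p = 0.518). Hoxb13, the other posterior gene of the cluster, had 5 counts in all at passage 20 and 11 at passage 3 and was not tested.

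Central Hox genes, which pattern the neck and trunk, mostly fell by smaller steps than posterior ones. Of 15 genes of paralogs 4 to 8, 12 were tested and 10 were lower, and 8 of the 12 reached the count minimum at passage 3 alone. Hoxb4 (ENSMUSG00000038692, chromosome 11, 96318267 to 96321638), a gene of the neck that is also used to expand blood stem cells, had 13.6, 13.6 and 15.8 CPM at passage 20, against 18.2, 19.6 and 18.5 CPM at passage 3. The groups were separate, and the fall of 1.31-fold was among the smallest that passed (log2 -0.39 ± 0.10, adjusted p = 0.00369, edgeR quasi-likelihood with Benjamini-Hochberg). Hoxb4 was the most abundant Hox gene at passage 20, at 5.58 ± 0.494 RPKM, above Hoxb9 at 2.56 ± 0.353 RPKM, and it had stood at 7.32 ± 0.277 RPKM at passage 3.

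Its neighbours towards the 5′ side, less abundant than Hoxb4 at both passages, fell further. Hoxb5, Hoxb6 and Hoxb7 had log2 fold changes of -1.22, -1.89 and -1.74, with 21 to 27 counts each over the passage 20 libraries, while Hoxb8 at 2.39 ± 0.502 CPM at passage 20 and 3.06 ± 0.246 CPM at passage 3 did not pass (log2 -0.38 ± 0.21, adjusted p = 0.121, edgeR quasi-likelihood with Benjamini-Hochberg). With library sizes only, Hoxb8 passed at -0.71. Change within cluster b was therefore smallest at Hoxb2, Hoxb4, Hoxb8 and Hoxb9 and larger at Hoxb3 and from Hoxb5 to Hoxb7.

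In the other clusters, Hoxa5, which patterns the lung and the upper trunk, was 8.08-fold lower and Hoxa7 2.83-fold lower. Leaving out passage 20 replicate 1, which held 5 of the 9 Hoxa5 counts of that passage, moved its log2 fold change of -3.01 to -3.62. Hoxc6 (ENSMUSG00000001661), a gene of the forelimb level of the trunk, had 1.58, 1.19 and 1.32 CPM at passage 20, against 2.47, 3.51 and 3.18 CPM at passage 3, 2.24-fold lower (adjusted p = 0.000904, edgeR quasi-likelihood with Benjamini-Hochberg). It was the most abundant gene of cluster c at passage 20, at 0.567 ± 0.0830 RPKM. Hoxc4 was 3.56-fold lower, and Hoxc5, with 3 counts at passage 20 and 64 at passage 3, was 13.3-fold lower from pooled counts, with a 95% counting interval of 4.35 to 66.2. The fitted log2 value of Hoxc5 moved to -4.43 from -3.62 without passage 20 replicate 3.

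Hoxc8 was called with all libraries but not when some were left out. It had 0.297, 0.0994 and 0.822 CPM at passage 20, against 1.20, 1.36 and 1.01 CPM at passage 3, and 10 of its 14 passage 20 counts were in replicate 3. Its log2 fold change of -1.43 ± 0.47 (adjusted p = 0.0164, edgeR quasi-likelihood with Benjamini-Hochberg) was -2.53 without that library. The call was lost without passage 3 replicate 2 (-1.35, adjusted p = 0.0619), passage 20 replicate 1 (-1.25, adjusted p = 0.0603) or passage 20 replicate 2 (-1.01, adjusted p = 0.0628). Hoxd8 did not pass (log2 -0.54 ± 0.27, adjusted p = 0.0883) except with library sizes only, at -0.87.

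**Figure D4:**
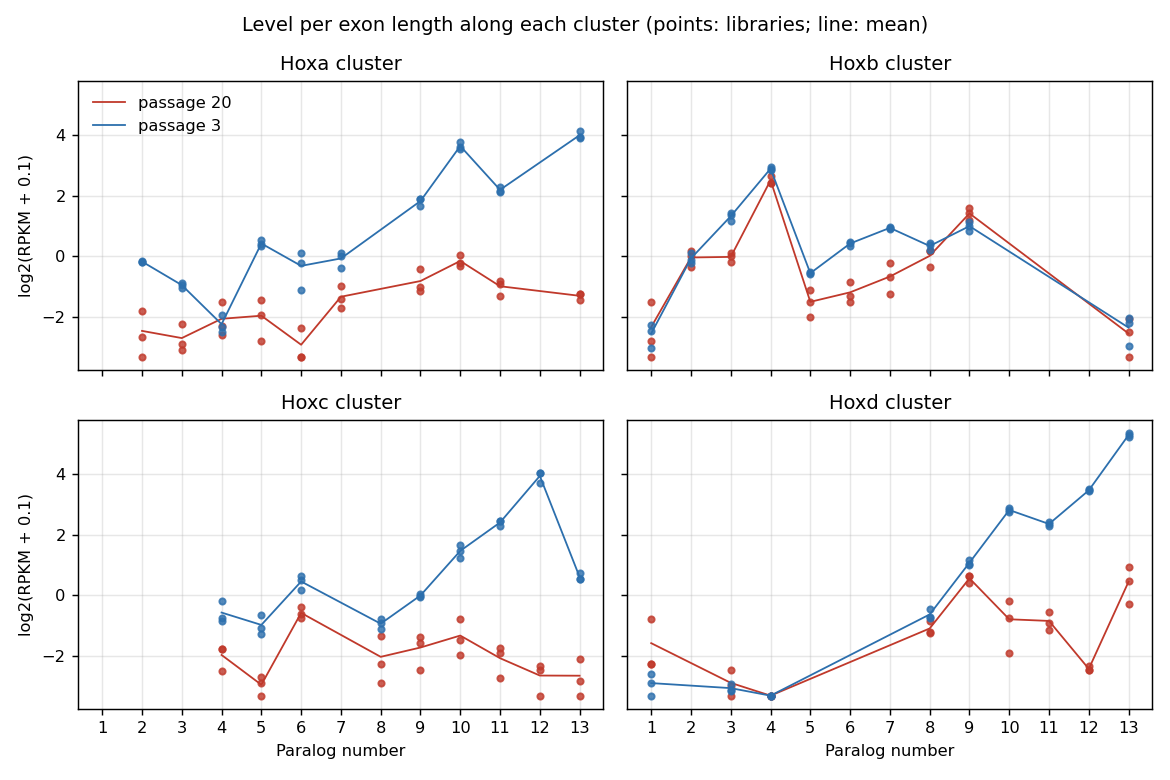
Level of coding Hox genes as log2(RPKM + 0.1) against its paralog number, one panel per cluster; points are libraries and lines join the means of passage 20 (red) and passage 3 (blue). In Hoxa, Hoxc and Hoxd the lines part most towards paralogs 10 to 13, where passage 3 reaches 39.1 RPKM at Hoxd13. In Hoxa they also part at Hoxa2, Hoxa3, Hoxa5 and Hoxa6. The Hoxb lines part less, mainly at Hoxb3 and from Hoxb5 to Hoxb7, and peak at Hoxb4 in both passages.

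Among the anterior Hox genes described here, which pattern the hindbrain, Hoxa2, Hoxa3 and Hoxb3 were lower and Hoxb2 did not pass. Hoxb1, Hoxd1 and Hoxd3 were below the count minimum and are given further on. Hoxa2 and Hoxa3 reached that minimum at passage 3 alone, which favours lower calls, and Hoxb2 and Hoxb3 reached it at both passages. In cluster a, Hoxa2 and Hoxa3 were lower, at log2 -3.10 ± 0.52 and -2.85 ± 0.40 (adjusted p = 0.000231 and 6.4e-05, edgeR quasi-likelihood with Benjamini-Hochberg). Replicate 3 held 4 of the 5 Hoxa2 counts and 8 of the 11 Hoxa3 counts of passage 20, and without it these values were -4.60 and -4.01.

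Hoxb3 (ENSMUSG00000048763, chromosome 11, 96323326 to 96347930) had 3.27, 3.88 and 4.11 CPM at passage 20, against 10.9, 9.18 and 10.5 CPM at passage 3. The groups were well apart, at 2.70-fold lower (adjusted p = 4.67e-06, edgeR quasi-likelihood with Benjamini-Hochberg). Hoxb2, a gene of the hindbrain like Hoxb3, had 3.03 ± 0.594 CPM at passage 20 and 2.97 ± 0.404 CPM at passage 3, with overlapping libraries and no pass (adjusted p = 0.851). Of the exon bases of Hoxb3, 52.9% lie opposite exons of Hoxb3os, and of those of Hoxb2 27.3% do, and since no source used here states the strand setting of the counting, reads there cannot be assigned with certainty.

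The 7 coding members below the count minimum add little to these patterns. Hoxd4 was at 0 counts in all 6 libraries, which allows up to 0.0928 CPM at passage 20 and 0.0579 CPM at passage 3 (3 counts over each passage), and 39.1% of its exon bases are shared with Gm28230 on the same strand. Hoxa4 had 7 counts in all at passage 20 and 9 at passage 3, Hoxb1 had 8 and 8, and Hoxd3 had 5 and 4. Hoxa6 was at 1 count at passage 20 and 32 at passage 3, 20.0-fold lower from pooled counts with a 95% counting interval of 3.34 to 812.9. Hoxd1 had 2, 2 and 11 counts at passage 20, against 1, 2 and 0 at passage 3, 8.01-fold higher from pooled counts with an interval of 2.27 to 43.2, and most of these counts were in passage 20 replicate 3. In a fit with no count minimum, Hoxa6 was lower (adjusted p = 4.62e-05) and Hoxd1 higher (adjusted p = 0.00308, both by edgeR quasi-likelihood with Benjamini-Hochberg), and the other members below the minimum that had counts did not pass.

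The noncoding RNAs of the posterior ends went the way of the coding genes around them. Of 8, 5 were tested, 4 of them were lower and all 4 had reached the count minimum at passage 3 alone. Hotair (ENSMUSG00000086903, chromosome 15, 102944062 to 102947730, minus strand) is an antisense RNA between Hoxc11 and Hoxc12, known from human fibroblasts for acting on the HOXD cluster with Polycomb. It had 0 counts in each passage 20 library, against 46, 62 and 60 counts in passage 3 libraries. At 3.26 ± 0.492 CPM at passage 3 and a limit of 0.0928 CPM for 3 counts over passage 20, it was at least 34.9-fold lower (adjusted p = 3.01e-06, edgeR quasi-likelihood with Benjamini-Hochberg). Its coding neighbours on either side, described above, were 36.6-fold and 256-fold lower.

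Hottip (chromosome 6, 52262775 to 52267603, plus strand) lies upstream of Hoxa13 and is known from human cells to help keep posterior Hoxa genes active by bringing in a Trithorax complex. It had 0, 2 and 1 counts at passage 20, against 62, 62 and 57 at passage 3, which gave a pooled ratio of 37.6-fold lower with a 95% counting interval of 12.7 to 184.2 (adjusted p = 1.83e-06, edgeR quasi-likelihood with Benjamini-Hochberg). Without passage 20 replicate 2 its fitted log2 value moved to -6.05 from -5.11. Evx1os, the antisense RNA beyond the 5′ end of cluster a, was the most abundant noncoding member at passage 3, with 0.594, 0.398 and 0.904 CPM at passage 20, against 25.8, 24.6 and 20.9 CPM at passage 3. Its groups were far apart, at 36.1-fold lower (log2 -5.17 ± 0.21, adjusted p = 3.33e-09, same test).

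Hoxa11os, antisense to Hoxa11, had 0, 0.298 and 0.329 CPM at passage 20, against 3.04, 2.09 and 2.58 CPM at passage 3, 11.4-fold lower (adjusted p = 3.53e-05, edgeR quasi-likelihood with Benjamini-Hochberg). Hoxa11 itself was 10.9-fold lower, but 35.0% of its exon bases lie opposite Hoxa11os, so these values may not be separate. In cluster b, Hoxb3os had 1.58, 1.59 and 1.32 CPM at passage 20, against 1.33, 1.85 and 1.21 CPM at passage 3. The libraries overlapped and the gene did not pass (log2 0.03 ± 0.26, adjusted p = 0.913). Below the count minimum, Hotairm1, an RNA of the 3′ end of cluster a, had 10 counts at passage 20 and 6 at passage 3, Hoxb5os had 1 and 7, and Hoxd3os1 had 5 and 12.

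**Figure D5:**
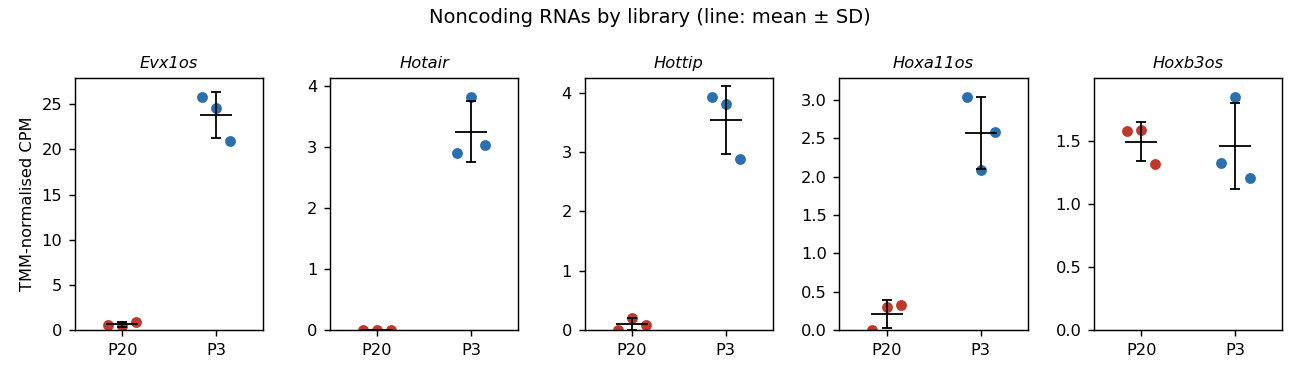
TMM-normalised CPM of the 5 tested noncoding members by library, passage 20 (P20) left of passage 3 (P3), with mean ± SD bars and an axis from 0 for each gene. Hotair is at 0 in all P20 libraries, Evx1os, Hottip and Hoxa11os lie far below P3, and Hoxb3os overlaps.

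Genes beside the clusters did not share one direction. Of 13 flanking genes found in the files, 11 were tested, with 5 higher, 4 lower and 2 not passed, and a median log2 fold change of 0.09. The share called was 81.8%, against 74.3% of all genes tested. The homeobox genes Evx1 and Evx2, which sit at the 5′ ends of clusters a and d and are close relatives of Hox genes, moved with the posterior members. Evx1 had 1.78, 2.29 and 3.04 CPM at passage 20, against 28.1, 28.5 and 25.9 CPM at passage 3, 11.4-fold lower, and Evx2 had 4 counts in all at passage 20 and a log2 fold change of -5.47 ± 0.38 (adjusted p = 5.02e-09 and 2.41e-07, edgeR quasi-likelihood with Benjamini-Hochberg). At the other end of cluster a, Skap2 was 1.85-fold higher, and Hnrnpa1 beside cluster c was 1.55-fold higher, with no overlap between passages in either (adjusted p = 1.05e-05 and 2.3e-05).

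Partners of Hox proteins stayed abundant. Pbx, Meis and Pknox proteins bind DNA together with Hox proteins, and their 9 genes summed to 543.8 to 564.6 CPM at passage 20 and 537.6 to 569.7 CPM at passage 3. Of the 9, 4 were higher, 3 lower and 2 did not pass, so 77.8% were called, against 74.3% of all genes tested. Meis2 had 79.8 ± 6.89 CPM at passage 20 and 40.2 ± 2.26 CPM at passage 3, 1.98-fold higher, and Pbx3 was 1.65-fold higher, whereas Pknox1 was 1.39-fold lower (largest adjusted p of the 3 genes = 0.000741, edgeR quasi-likelihood with Benjamini-Hochberg). The letters TGACAG, a Meis-type motif read on both strands, were in 3 of the 29 member windows (10.3%), those of Hoxa11os, Hoxa2 and Hoxa3, against 19.2% of all windows.

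Regulators of Hox genes also moved in both directions, with 9 of 21 tested genes higher, 7 lower and 5 not passed. Their called share of 76.2% was close to the 74.3% of all genes tested. Cdx proteins turn on central Hox genes in the caudal embryo, and Cdx2 had 1.88, 1.69 and 3.62 CPM at passage 20, against 0.760, 0.493 and 0.657 CPM at passage 3, 3.81-fold higher (log2 1.93 ± 0.36, adjusted p = 0.000491, edgeR quasi-likelihood with Benjamini-Hochberg). Cdx1 and Cdx4 were below the count minimum, at 0.693 ± 0.199 and 0.236 ± 0.212 CPM at passage 20 and at 0.372 ± 0.0701 and 0.188 ± 0.190 CPM at passage 3. The letters TTTATG, a Cdx-type motif read on both strands, were in 5 of the 29 member windows (17.2%), against 11.9% of all windows, and these were windows of Hoxa7, Hoxb8, Hoxd11, Hoxd3 and Hoxd4. The brachyury gene T, a regulator of caudal mesoderm, was 17.4-fold higher (adjusted p = 5.92e-09, edgeR quasi-likelihood with Benjamini-Hochberg).

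Gdf11 and Cyp26b1 had the largest falls among the regulators. Gdf11, a ligand that turns on posterior Hox genes at the trunk to tail transition, had 13.1, 15.6 and 20.0 CPM at passage 20, against 72.1, 69.9 and 70.7 CPM at passage 3. The groups were well apart, at 4.34-fold lower (adjusted p = 7.31e-08, edgeR quasi-likelihood with Benjamini-Hochberg). Cyp26b1, an enzyme that breaks down retinoic acid, was 3.99-fold lower, and Rara, a retinoic acid receptor gene, was 1.89-fold higher (adjusted p = 5.27e-07 and 1.94e-07). Of 8 Polycomb and Trithorax genes in this list, 2 were higher (Eed and Suz12), 3 were lower (Cbx2, Bmi1 and Kmt2d) and 3 did not pass (Ezh2, Rnf2 and Kmt2a). The following values were chosen after they were seen. Eed had 74.1 ± 12.5 CPM at passage 20 and 36.3 ± 3.38 CPM at passage 3 (2.04-fold higher, adjusted p = 5.12e-05, edgeR quasi-likelihood with Benjamini-Hochberg), and Suz12 was 1.28-fold higher. Cbx2 had 20.7 ± 7.20 CPM at passage 20 and 52.5 ± 1.60 CPM at passage 3, with replicate 3 the highest of passage 20 (2.50-fold lower, adjusted p = 0.000411, same test). Bmi1 was 1.69-fold and Kmt2d 1.38-fold lower. Ezh2 had 92.9 ± 6.99 CPM at passage 20 and 85.2 ± 3.00 CPM at passage 3, and Kmt2a had 175.2 ± 2.37 CPM at passage 20 and 172.7 ± 3.28 CPM at passage 3.

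Markers of other cell types moved as well, and their part in the Hox values was not tested. Of 9 limb mesenchyme genes, 8 were tested, with 7 lower and 1 higher, and their summed level was 598.6 to 680.3 CPM at passage 20 and 1231.2 to 1265.6 CPM at passage 3. In this list Tbx4, a hindlimb gene, was 14.4-fold lower, at 11.7 ± 1.03 CPM at passage 20 and 169.0 ± 2.98 CPM at passage 3. Tbx4 was the 1 tested gene of the list at least 4-fold lower, and the list median was a log2 fold change of -0.87. Pitx1 was 2.00-fold lower and Lhx2 3.91-fold higher. All of these genes were named after their values were seen. Fibroblast markers summed to 24673.5 to 29817.5 CPM at passage 20 and 12638.7 to 13335.9 CPM at passage 3, with 6 of 7 tested genes higher, 1 lower and S100a4 at 0 counts in every library. Markers of paraxial and caudal mesoderm, all 5 of them higher, summed to 20.7 to 27.1 CPM at passage 20 and 11.0 to 12.2 CPM at passage 3. Neural markers, of which 2 of 4 tested were higher and 2 lower, summed to 99.2 to 121.6 CPM at passage 20 and 51.4 to 54.0 CPM at passage 3. Tubb3 carried that difference, and without it the neural sum was 16.2 to 18.6 CPM at passage 20 and 18.1 to 19.6 CPM at passage 3. Endothelial markers, with 1 of 4 tested higher and 2 lower, summed to 10.8 to 11.4 CPM at passage 20 and 16.9 to 19.7 CPM at passage 3, and haematopoietic markers, where Cd74 was the 1 gene tested and Ptprc was at 0 counts, to 11.2 to 12.2 and 3.61 to 3.79 CPM.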

How the data were processed

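RNA sequencing covered 3 libraries of ciCPCs at passage 20 and 3 at passage 3. Gene counts were deposited by the authors as whole numbers and entered the fit unchanged; the deposited log2 values were not used. Per the submitters' processing notes, HISAT2 2.0.5, SAMtools, HTSeq and DESeq2 were used with GRCm38; no source used here gives their roles, the annotation release, the strand setting or the treatment of overlapping genes. GENCODE M21 (GRCm38) supplied names, positions and exon lengths for 53706 of 53801 genes, and the others held 0.00623% of counts. Reads in exons that genes share are uncertain (among tested members mainly Hoxb3, Hoxb2 and Hoxb3os, Hoxa11 and Hoxa11os, Hoxa7, Hoxa2, Hoxd11, Hoxc5 and Hoxc10).

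A minimum of 10 counts at the median library size (0.733 CPM) in 3 libraries (filterByExpr) left 15143 genes. They were scaled by TMM, and the robust quasi-likelihood test of edgeR 4.0.16 (R 4.3.3) was run over all 6 libraries with passage as the one term, and p-values were adjusted over all 15143 genes by the Benjamini-Hochberg method, called at 0.05. The common biological coefficient of variation was 7.05%. The SE of a log2 fold change is its size over the square root of the F statistic. Groups with 1 to 3 counts are given as pooled ratios with exact 95% intervals, and groups at 0 against 3 counts over the passage; both cover counting error only. Promoter windows came from RefSeq on GRCm38.p6.

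Alternatives were DESeq2 1.42.0, limma-voom (limma 3.58.1), RLE or upper-quartile factors, library sizes only, no count minimum, 1 CPM in 3 libraries, a replicate block, GC and length offsets (mgcv 1.9.3), both together, a threshold of 0.01, and each library left out. Members, gene lists and tests were chosen with earlier results of these data known. Values in every library were due for the 3 called members per cluster with the largest change and at least 5 CPM, the most abundant member per cluster and passage, and tested noncoding members; flanking genes, cofactors and regulators were named by up to 2 of the smallest adjusted p per direction, plus Evx and Cdx genes. Other values shown by library were chosen after they were seen. The results of 2 genes are not reported here.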

Additional observations from a re-analysis of the deposited data

How the results depend on the processing

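Of 800 fold changes (50 named or member genes under 16 alternatives), 777 kept their direction and their side of the threshold, 10 lost the call, 2 gained it and 11 turned, all of these in Hoxb2 and Hoxb3os, which never passed. Hoxb2 was at -0.03 with upper-quartile factors and -0.28 with library sizes only, and at -0.10 to 0.19 with single libraries left out; Hoxb3os was at -0.04 and -0.29, and at -0.11 to 0.22. Members called lower numbered 31, 30 to 32 with each library left out and 29 to 33 otherwise. Members called higher numbered 2, with Hoxb9 among them, and 1 with upper-quartile factors, library sizes only, DESeq2 or the 0.01 threshold; with each library left out they numbered 1 to 2. In those settings the count for cluster b, and likewise for paralogs 9 to 13, was 0 in place of 1, and 0 to 1 with each library left out. With no count minimum Hoxd1 was called, which gave 1 in cluster d and 2 in paralogs 1 to 3. Library sizes only moved the median of all genes to -0.34 and gave 3528 genes higher, 3 flanking genes higher, 11 regulators lower, and log2 ratios of summed levels of -0.86 for cluster b (CPM and RPKM) and -3.83 for cluster a (RPKM). The TMM factors were 1.12 to 1.13 at passage 3 and 0.873 to 0.917 at passage 20. Leaving them out therefore lowers every ratio of passage 20 over passage 3, not those of clusters a and b alone. Why the factors differ between passages was not tested.

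The counts gave no sign that replicate numbers pair the libraries. Deviations of same-numbered libraries correlated at 0.0143, -0.0273 and 0.0454, and those of other pairs at -0.044 to 0.0383. With 3 libraries per passage, such values cannot tell whether the cultures were paired. With a replicate block, 2 members were higher and 31 lower, and 5521 and 5582 of all genes. Depth limits the members with under about 10 counts at passage 20.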
